A study of Mus musculus with 12 samples.

Results

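The genes described here encode the contractile apparatus of smooth muscle cells and of stress fibres, the bundles of actin and myosin that fibroblasts use to pull on their surroundings. They were taken as 35 named genes, found in the count table by their mouse Entrez identifiers, and all 35 were found among 27179 genes. Of these, 34 passed the filter on low counts and were tested together with 14136 genes in all. The genes fall into actins, myosin chains and the myosin light chain kinase, tropomyosins, proteins that bind or regulate the thin filament, crosslinkers and adhesion proteins, the intermediate filament desmin, and a pair of transcription factors.

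Contraction starts when the kinase encoded by Mylk phosphorylates the regulatory light chain of non-muscle or smooth muscle myosin II, which then slides actin filaments that tropomyosin, calponin and caldesmon decorate. Many of these genes are known targets of serum response factor (SRF), which binds a DNA element called the CArG box and works with myocardin in smooth muscle or with the actin-sensing co-activators MRTF-A and MRTF-B in most cells. In fibroblasts a rise of smooth muscle actin in stress fibres is the usual mark of a myofibroblast.

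RNA came from embryonic fibroblasts of wild-type C57BL/6 mice, isolated at embryonic day 13.5 and grown in 3% oxygen. The treated groups received the MYST acetyltransferase inhibitor WM-8014 and the control groups WM-2474, an inactive compound, both at 10 µM, for 96 or 240 h, and each of the 4 groups held cultures 5, 6 and 7. There was no untreated group, so every compound effect below is WM-8014 relative to WM-2474. The labels name no more than wild-type embryos as the source of a culture, so whether a culture is 1 embryo or a pool was not given in the sources used here.

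The 12 libraries held 10147466 to 45903190 reads, and the 35 genes took 2.22 to 3.54% of them. Fibroblast markers (Pdgfra, Pdgfrb, Thy1, Col1a1, Col1a2, Dcn, Lum and Vim) summed to 21520 to 36275 CPM, reads scaled to the library total, most of it from Col1a1, Col1a2 and Vim. Pdgfra fell with WM-8014 at 240 h, from a mean of 205 to 152 CPM (adjusted p = 1.84e-06), and Lum from 16 to 3.45 CPM (adjusted p = 0.00595). Vim rose there from 3818 to 4209 CPM (adjusted p = 0.00334), and the other 5 markers were not called. At 96 h only Col1a2 was called, higher with WM-8014 by 0.19 on the log2 scale (adjusted p = 0.00555). Markers of skeletal muscle (Myod1, Myog, Ckm and others) summed to at most 4.67 CPM and those of cardiac muscle to at most 8.52 CPM. Cultures 6 and 7 of WM-2474 at 96 h were set apart by low values of a few genes that encode no contractile protein. Misp3 was at 0.723 and 0.942 CPM there and Stag3 at 1.81 and 2.5 CPM. In the other 10 libraries, cultures 6 and 7 of the other groups among them, Misp3 was at 79.9 to 285 CPM and Stag3 at 22.9 to 37.5 CPM. The 96 h and interaction calls were therefore also computed with culture 5 as the sole WM-2474 library at 96 h. All libraries are labelled female, yet the Y-linked gene Ddx3y was at 96.2 to 124 CPM in each. Because these are bulk samples, fewer cells of a type and less RNA per cell cannot be told apart in any value below.

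With WM-8014 far more contractile genes fell than rose at 96 h, and more rose than fell at 240 h. At 96 h, 17 of 34 fell and 2 rose, against 11.8% lower and 10.9% higher among all genes tested (22.8% in all). At 240 h, 6 fell and 12 rose, against 21.4% lower and 21.2% higher among all genes (42.6% in all). The shares of all genes were not matched for abundance, and smaller changes can be called in genes with more reads. Many of the 34 were abundant, such as Acta2 and Tagln, while Myocd was rare. In reads per kilobase with WM-2474 at 96 h these ranked 14, 21 and 12599 among the genes tested. The median log2 fold change of the 34 genes was -0.13 at 96 h and 0.07 at 240 h, where the medians of all genes tested were 0.00 and 0.01. The desmin gene Des, the skeletal muscle actin gene Acta1, the myocardin gene Myocd and the tropomyosin gene Tpm2 had the highest fold changes at 240 h, 3.05, 1.96, 1.54 and 1.41 in that order. Calls are from edgeR's quasi-likelihood test at an adjusted p under 0.05 over all genes tested.

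The changes at 96 h were small, with fold changes of 1.08 to 1.27 among the 17 genes that fell. None of the 17 overlapped between the groups, but they were picked by a test on the same libraries, so this adds no support. At 96 h the 35 genes together summed to 23386, 23469 and 23785 CPM with WM-2474 and 21155, 21900 and 21163 CPM with WM-8014. At 240 h the sums were 33474, 36105 and 35267 CPM with WM-2474 and 37084, 38119 and 34771 CPM with WM-8014, and these overlapped. At 96 h, 22 genes lay lower and 4 higher with no overlap between the groups, against 19.9% and 18.1% of all genes tested. The corresponding counts at 240 h were 5 lower and 10 higher, against 25.6% and 26.2% of all genes tested.

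**Figure D1:**
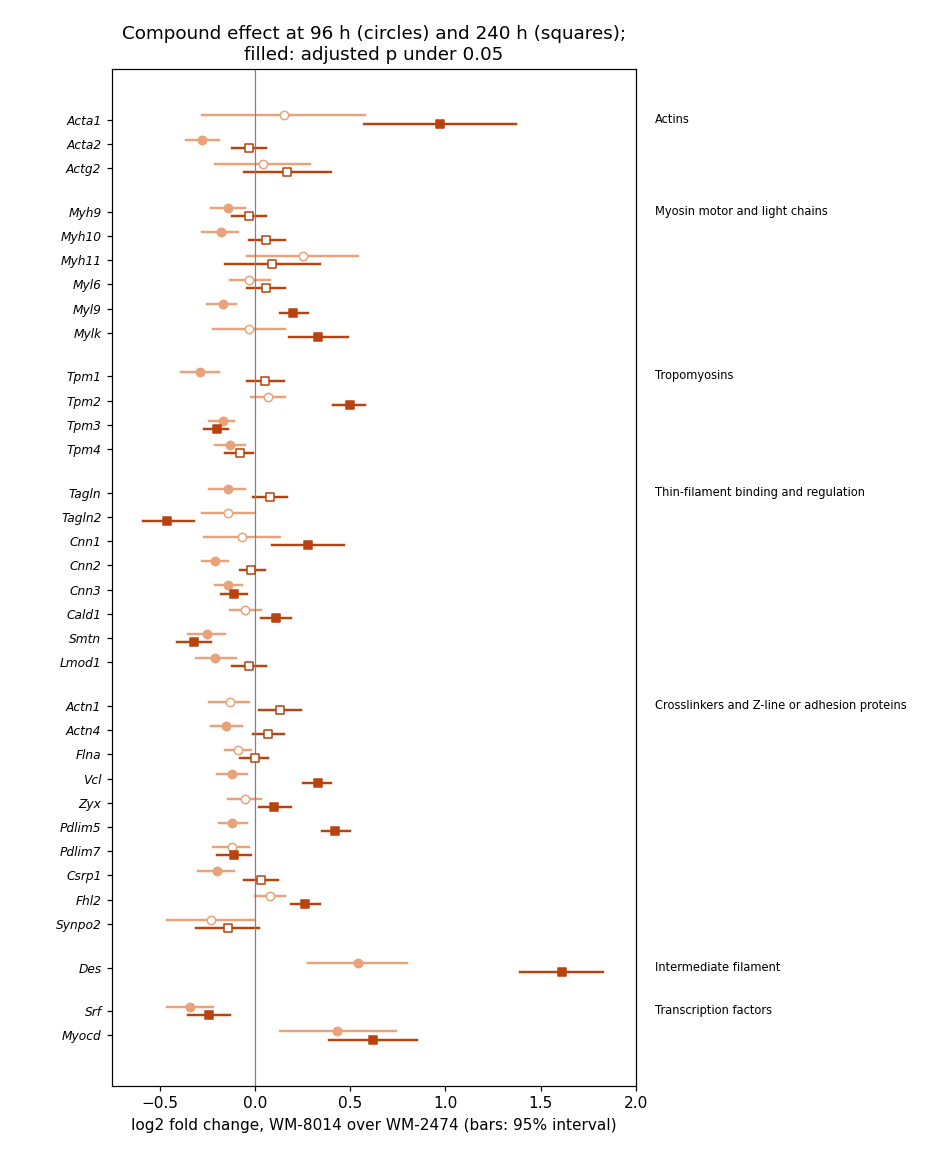
Log2 fold change of WM-8014 over WM-2474 for the 34 contractile genes tested, at 96 h (circles) and 240 h (squares), with 95% intervals and filled symbols where the adjusted p was under 0.05. Most circles lie left of 0, while squares lie on both sides, with Des at 1.61 and Tagln2 at -0.46 as the ends of the range at 240 h.

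SRF sites were looked for in the promoters, because SRF and 1 of its co-activators are themselves among the 35 genes. RefSeq promoter windows on GRCm38.p6, of 250 bases before and 50 bases after an annotated transcript start, were found for 31 of the genes, and not for Actg2, Tagln, Myh11 and Myocd. The CArG box, which reads the same on both strands, was in a window of 8 of these 31 genes (25.8%) and of 488 of 27025 genes in all (1.81%). These 8 genes were Fhl2, Actc1, Myl9, Acta1, Cnn2, Myl6, Vcl and Srf. A CArG-like site, with 1 G or C among the 6 central bases, was in 5 of 31 genes (16.1%) against 9.69% of all genes, and CATTCC, the core of the element bound by TEAD factors, on either strand was in 12 of 31 (38.7%) against 16.6%. The list was chosen partly for known SRF targets, so these shares describe it and a match is not a site shown to be bound.

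The windows printed here are those of Srf itself, of Acta2, which fell at 96 h, of Vcl and Myl9, which fell at 96 h and rose at 240 h, and of Acta1, which rose at 240 h. Capitals mark CArG boxes, except in Acta2, where they mark CArG-like sites, and the sequences run 5′ to 3′ along the gene's own strand.
Srf (chr17:46556113-46556412, minus strand): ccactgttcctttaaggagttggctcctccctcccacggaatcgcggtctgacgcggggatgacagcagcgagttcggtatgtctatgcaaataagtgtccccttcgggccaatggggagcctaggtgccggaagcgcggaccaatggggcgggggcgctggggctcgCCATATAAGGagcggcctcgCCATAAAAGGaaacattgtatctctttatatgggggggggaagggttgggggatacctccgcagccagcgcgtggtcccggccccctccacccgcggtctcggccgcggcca
Acta2 (chr19:34255324-34255623, minus strand): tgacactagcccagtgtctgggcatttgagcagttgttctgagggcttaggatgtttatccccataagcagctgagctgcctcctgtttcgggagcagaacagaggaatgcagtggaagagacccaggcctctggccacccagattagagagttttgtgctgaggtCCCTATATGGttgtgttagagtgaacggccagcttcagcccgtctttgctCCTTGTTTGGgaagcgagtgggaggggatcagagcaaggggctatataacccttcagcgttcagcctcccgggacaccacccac
Vcl (chr14:20929148-20929447, plus strand): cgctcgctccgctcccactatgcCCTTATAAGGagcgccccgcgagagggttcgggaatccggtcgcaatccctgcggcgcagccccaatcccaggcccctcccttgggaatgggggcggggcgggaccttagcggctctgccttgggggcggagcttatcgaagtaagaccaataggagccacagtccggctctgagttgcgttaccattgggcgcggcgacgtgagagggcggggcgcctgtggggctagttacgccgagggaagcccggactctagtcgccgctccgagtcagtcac
Myl9 (chr2:156775214-156775513, plus strand): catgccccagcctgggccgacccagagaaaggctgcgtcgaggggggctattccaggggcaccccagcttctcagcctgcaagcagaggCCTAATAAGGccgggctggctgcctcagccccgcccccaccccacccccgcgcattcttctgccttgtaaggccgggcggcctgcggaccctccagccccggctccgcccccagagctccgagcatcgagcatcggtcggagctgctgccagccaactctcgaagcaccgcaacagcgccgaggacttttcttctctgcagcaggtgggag
Acta1 (chr8:123894726-123895025, minus strand): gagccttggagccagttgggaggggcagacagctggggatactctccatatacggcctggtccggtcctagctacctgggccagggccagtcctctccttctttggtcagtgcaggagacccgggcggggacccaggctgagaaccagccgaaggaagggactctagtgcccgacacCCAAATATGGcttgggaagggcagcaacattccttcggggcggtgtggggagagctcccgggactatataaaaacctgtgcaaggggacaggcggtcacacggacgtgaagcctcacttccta
In Srf the boxes lie 82 to 73 and 62 to 53 bases before the start, in Vcl 227 to 218, in Myl9 161 to 152 and in Acta1 73 to 64. The marked sites of Acta2 lie 84 to 75 and 34 to 25 bases before the start. Of the 7 tested genes with a CArG box, Srf, Cnn2, Myl9 and Vcl fell at 96 h and Fhl2, Acta1 and Myl6 did not pass. At 240 h Fhl2, Myl9, Acta1 and Vcl rose, Srf fell, and Cnn2 and Myl6 did not pass. Of all 34 contractile genes tested, with or without a box, 17 fell at 96 h, and 12 rose and 6 fell at 240 h. Among all genes tested 11.8% fell at 96 h, and 21.2% rose and 21.4% fell at 240 h. A link between the box and the changes was not tested.

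Among the actins, only Acta2 fell at 96 h and only Acta1 rose at 240 h. Acta2, on chromosome 19 from 34240336 to 34255585 (mm10, minus strand), encodes the smooth muscle actin of myofibroblasts. At 96 h it was at 2625, 2658 and 2741 CPM with WM-2474 and at 2180, 2276 and 2176 CPM with WM-8014, for cultures 5, 6 and 7 in that order here and below. Every WM-8014 library lay under every WM-2474 library, and Acta2 fell 1.21-fold (log2 fold change -0.28, SE 0.043, adjusted p = 0.000112). At 240 h it was at 5247, 5646 and 5566 CPM with WM-2474 and 5483, 5630 and 4976 CPM with WM-8014, and the groups overlapped. Its log2 difference there was -0.03, with a 95% interval of -0.12 to 0.06 (adjusted p = 0.568).

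Acta1, on chromosome 8 from 123891758 to 123894775 (mm10, minus strand), encodes the actin of adult skeletal muscle, which smooth muscle and cultured fibroblasts can also make. At 96 h it was at 126, 120 and 112 CPM with WM-2474 and 127, 150 and 119 CPM with WM-8014, with overlap between the groups (adjusted p = 0.613). At 240 h it was at 226, 317 and 260 CPM with WM-2474 and 528, 628 and 416 CPM with WM-8014. Each WM-8014 library then lay above each WM-2474 library, and Acta1 rose 1.96-fold (log2 fold change 0.97, SE 0.173, adjusted p = 0.00199). Of its transcripts' 50-base words 2.02% also occur in transcripts of other genes, among them Actb. The enteric smooth muscle actin gene Actg2 did not pass at either time, with log2 differences of 0.04 (95% interval -0.21 to 0.29) and 0.17 (-0.06 to 0.40). The cardiac actin gene Actc1 had 98 reads over the 12 libraries, at 0 to 0.902 CPM, and was not tested.

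Per length of transcript, Acta2 was the most abundant of the actin members throughout. Its level in reads per kilobase, scaled as CPM (RPKM), was 1503 ± 34 with WM-2474 at 96 h (SD, n = 3), the rank 14 among the genes tested, and 3082 ± 120 at 240 h, the rank 4. Of the summed RPKM of the 4 actin genes, Acta1 made up 5.12 ± 0.66% with WM-2474 and 9.6 ± 1.2% with WM-8014 at 240 h. At 96 h the share was 4.94 ± 0.41% and 6.39 ± 0.58%.

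**Figure D2:**
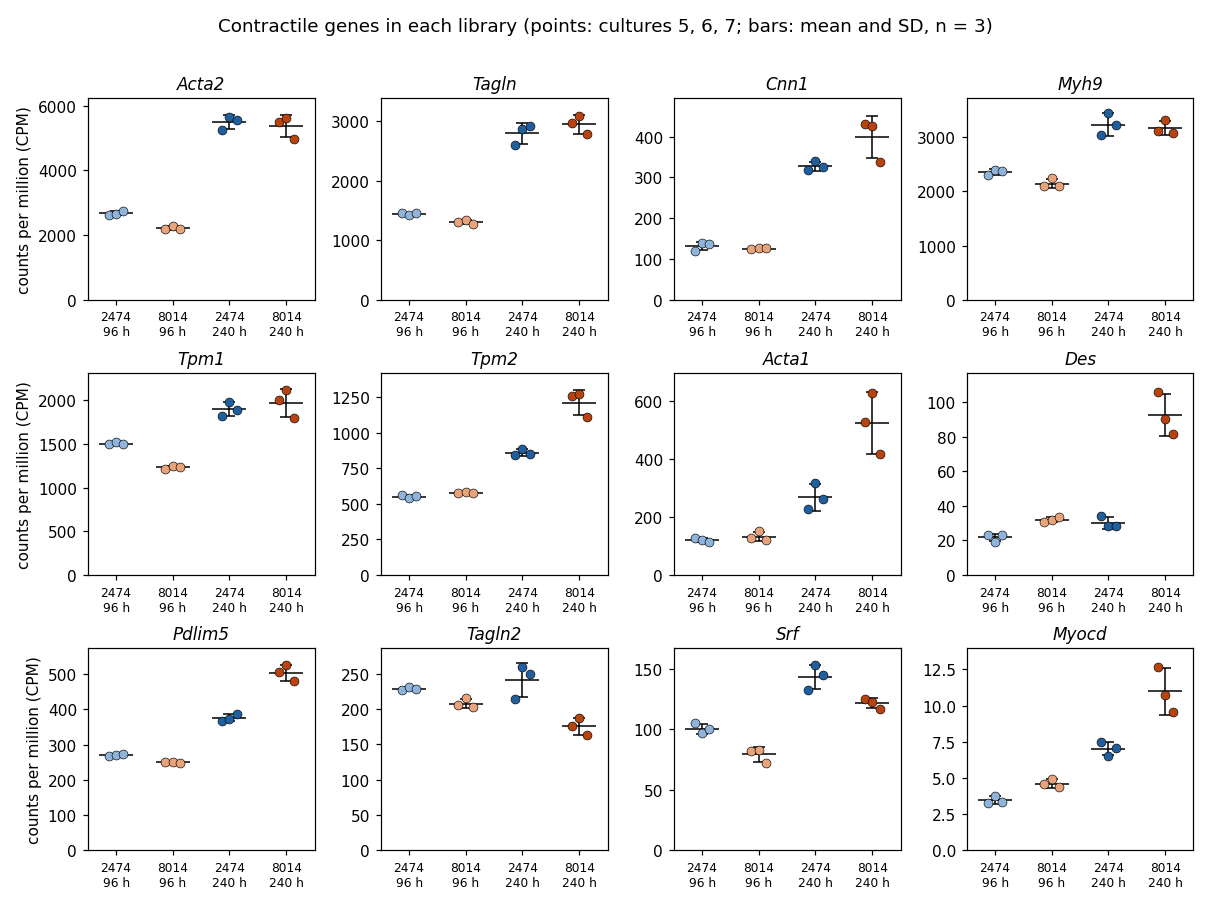
CPM of 12 contractile genes in each of the 12 libraries by group (x axis: compound and time), with points for cultures 5, 6 and 7 and bars for the mean and SD. Acta2, Tpm1 and Srf are lower with WM-8014 at 96 h with no overlap, while Tpm2, Acta1, Des, Pdlim5 and Myocd are higher at 240 h with no overlap.

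The myosin genes gave 3 lower and 0 higher calls of 6 at 96 h, and 0 lower and 2 higher at 240 h. The corresponding shares of all genes tested were 11.8% and 10.9% at 96 h, and 21.4% and 21.2% at 240 h. Myh9, which encodes the heavy chain of non-muscle myosin IIA, was at 2302, 2399 and 2382 CPM with WM-2474 and 2097, 2248 and 2097 CPM with WM-8014 at 96 h. The groups did not overlap and Myh9 fell 1.1-fold (log2 fold change -0.14, SE 0.044, adjusted p = 0.0285). By 240 h it stood at 3037, 3448 and 3224 CPM with WM-2474 and 3113, 3312 and 3072 CPM with WM-8014, with overlap (adjusted p = 0.594). The call at 96 h was lost without the WM-2474 library of culture 6 or 7 or the WM-8014 library of culture 5 or 7, with log2 fold changes of -0.13 to -0.12 and adjusted p of 0.0915 to 0.113. Myh10, the heavy chain of myosin IIB, had a log2 fold change of -0.18 at 96 h (adjusted p = 0.00564) and of 0.06 at 240 h (95% interval -0.03 to 0.16). Myh11, the smooth muscle heavy chain, was at 66.2 ± 9 and 80.2 ± 9 CPM at 96 h and at 267 ± 10 and 284 ± 31 CPM at 240 h, with WM-2474 first, and passed at neither time.

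Myl9, the regulatory light chain of smooth muscle and non-muscle myosin II, moved one way at 96 h and the other way at 240 h. It was at 351, 362 and 367 CPM with WM-2474 and 319, 326 and 315 CPM with WM-8014 at 96 h, and at 716, 758 and 724 CPM against 856, 866 and 807 CPM at 240 h. At neither time did the groups overlap. Myl9 fell 1.13-fold at 96 h (log2 fold change -0.17, SE 0.0362, adjusted p = 0.00176) and rose 1.15-fold at 240 h (0.20, SE 0.0352, adjusted p = 7.75e-05). The kinase gene Mylk did not pass at 96 h (-0.03, 95% interval -0.22 to 0.16) and rose 1.26-fold at 240 h, from 89.4 ± 8 CPM (log2 fold change 0.33, adjusted p = 0.00182). Myl6, the essential light chain, passed at neither time, and 16.7% of its 50-base words occur in other transcripts. Gene counts do not separate the long smooth muscle kinase and the short telokin transcripts of Mylk.

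The tropomyosins, coiled-coil proteins that lie along actin filaments, parted from each other. Tpm1 was at 1496, 1516 and 1498 CPM with WM-2474 and 1210, 1247 and 1233 CPM with WM-8014 at 96 h, with no overlap, and fell 1.22-fold (log2 fold change -0.29, SE 0.0458, adjusted p = 0.000147). At 240 h Tpm1 was at 1824, 1985 and 1891 CPM and 2002, 2117 and 1800 CPM, with overlap (adjusted p = 0.354). Tpm2, on chromosome 4 from 43513726 to 43523583 (mm10, minus strand) and the gene of beta-tropomyosin, was at 559, 539 and 556 CPM with WM-2474 and 577, 582 and 574 CPM with WM-8014 at 96 h. That difference of 0.07 on the log2 scale did not pass (adjusted p = 0.265), although the groups did not overlap. At 240 h Tpm2 was at 845, 886 and 847 CPM with WM-2474 and 1257, 1270 and 1110 CPM with WM-8014. It rose 1.41-fold with no overlap (log2 fold change 0.50, SE 0.0416, adjusted p = 4.50e-09).

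Tpm3 fell at both times. It was at 344, 338 and 334 CPM with WM-2474 and 301, 297 and 303 CPM with WM-8014 at 96 h, and at 311, 318 and 323 CPM and 283, 276 and 271 CPM at 240 h. The groups were apart at both times, with falls of 0.17 (adjusted p = 0.000473) and 0.20 (adjusted p = 2.38e-05) on the log2 scale. Of its 50-base words 40% occur in transcripts of other genes, among them Tpm3-rs7, so reads may be shared and its values are uncertain. Tpm4 fell at 96 h by 0.13 on the log2 scale (adjusted p = 0.0156), a call lost without the WM-2474 or the WM-8014 library of culture 5 (adjusted p = 0.0764 to 0.0866), and was not called at 240 h. Of the summed RPKM of the 4 tropomyosin genes, Tpm2 made up 25.8 ± 0.46% with WM-2474 and 33.3 ± 0.48% with WM-8014 at 240 h, against 20.8 ± 0.28% and 24.1 ± 0.33% at 96 h. At 240 h the share of Tpm4 was 30.2 ± 0.56% with WM-2474 and 26 ± 0.63% with WM-8014, and that of Tpm3 was 7.55 ± 0.18% and 6.02 ± 0.32%.

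**Figure D3:**
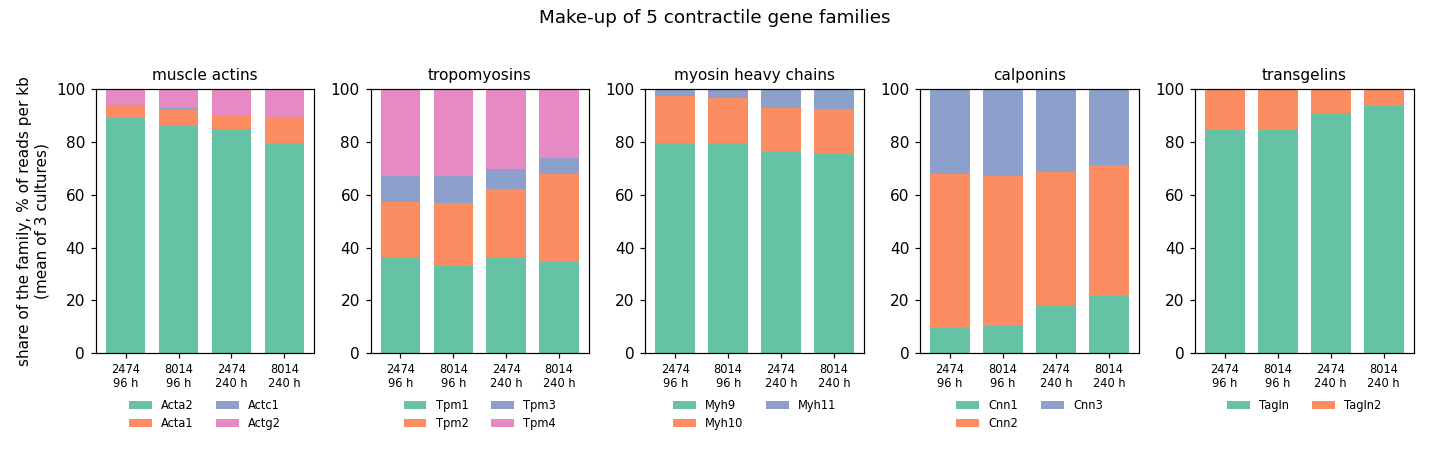
Share of each gene in the summed reads per kilobase of its family, as mean percent of 3 cultures, for actins, tropomyosins, myosin heavy chains, calponins and transgelins in the 4 groups. The Tpm2 share grew from 25.8 to 33.3% and the Acta1 share from 5.12 to 9.6% between WM-2474 and WM-8014 at 240 h.

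Of 8 genes whose products bind or regulate the thin filament, 5 fell and 0 rose at 96 h, and 3 fell and 2 rose at 240 h. Of all genes tested 11.8% fell and 10.9% rose at 96 h, and 21.4% and 21.2% at 240 h, so the rises of this group at 240 h were near the share of all genes. Tagln encodes transgelin (SM22), an actin-binding protein abundant in smooth muscle. It was at 1449, 1419 and 1449 CPM with WM-2474 and 1303, 1337 and 1266 CPM with WM-8014 at 96 h, with no overlap, and fell 1.11-fold (log2 fold change -0.14, SE 0.0439, adjusted p = 0.0211). The call was lost without the WM-2474 or the WM-8014 library of culture 5 or 7, with adjusted p of 0.0587 to 0.085. At 240 h Tagln was at 2596, 2870 and 2916 CPM and 2972, 3092 and 2779 CPM, with overlap, and did not pass (0.08, adjusted p = 0.161, and 0.0359 without the WM-8014 library of culture 7). An antisense gene, Gm48529, covers 62.4% of its exon bases, and the strand setting of the counting was not given in the sources used here.

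Tagln2, on chromosome 1 from 172500246 to 172507375 (mm10, plus strand), is the transgelin gene of many non-muscle cells. It was at 227, 231 and 228 CPM with WM-2474 and 205, 215 and 203 CPM with WM-8014 at 96 h, with no overlap. That difference of -0.14 did not pass without the culture number in the model (adjusted p = 0.134) and did with it (0.0382). At 240 h Tagln2 was at 214, 259 and 250 CPM with WM-2474 and 176, 187 and 163 CPM with WM-8014. The groups did not overlap and it fell 1.37-fold (log2 fold change -0.46, SE 0.063, adjusted p = 4.91e-05). Of the summed RPKM of both transgelin genes, Tagln2 made up 8.99 ± 0.37% and 6.38 ± 0.094% at 240 h.

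The calponins and smoothelin followed their own courses. Cnn1, the calponin of differentiated smooth muscle, was at 120, 138 and 136 CPM with WM-2474 and 125, 126 and 126 CPM with WM-8014 at 96 h, with overlap (adjusted p = 0.63). By 240 h it stood at 317, 340 and 325 CPM with WM-2474 and 431, 426 and 339 CPM with WM-8014, and it rose 1.22-fold (log2 fold change 0.28, SE 0.084, adjusted p = 0.0212). The lowest WM-8014 library, culture 7, lay within the range of WM-2474, and the call was lost without the WM-2474 library of culture 5 or 7 or the WM-8014 library of culture 5 or 6 (adjusted p = 0.0598 to 0.0797). Cnn2 and Cnn3, the calponins found beyond smooth muscle, fell 1.16-fold and 1.1-fold at 96 h (adjusted p = 0.000115 and 0.00332), and Cnn3 also fell at 240 h by 0.11 (adjusted p = 0.00838). Of the 50-base words of Cnn3 14.1% occur in other transcripts, and the opposite-strand gene Gm42928 overlaps 17.7% of the Cnn3 exon bases.

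Smtn, which encodes smoothelin of contractile smooth muscle, fell at both times. It was at 136, 127 and 130 CPM with WM-2474 and 112, 111 and 107 CPM with WM-8014 at 96 h, and at 174, 176 and 161 CPM and 129, 145 and 133 CPM at 240 h. No WM-8014 library reached a WM-2474 library of its time, and Smtn fell 1.19-fold (log2 fold change -0.25, SE 0.0463, adjusted p = 0.000483) and 1.25-fold (-0.32, SE 0.0446, adjusted p = 5.28e-06). Opposite-strand transcripts cover 16.3% of its exon bases. Lmod1, the leiomodin that nucleates actin filaments, fell 1.15-fold at 96 h (adjusted p = 0.00406) and was not called at 240 h. Cald1, which encodes caldesmon, rose at 240 h by 0.11 (adjusted p = 0.0265), lost without the WM-2474 library of culture 5 or the WM-8014 library of culture 5 or 6 (log2 fold changes 0.07 to 0.11, adjusted p = 0.0718 to 0.152).

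Among 10 genes of crosslinkers, Z-line and adhesion proteins, 4 fell and 0 rose at 96 h, and 1 fell and 4 rose at 240 h. All genes tested gave 11.8% lower and 10.9% higher at 96 h, and 21.4% lower and 21.2% higher at 240 h. Vcl, which encodes vinculin, and Pdlim5, a PDZ and LIM protein that binds alpha-actinin, changed direction as Myl9 did. Vcl was at 918, 928 and 952 CPM with WM-2474 and 848, 867 and 863 CPM with WM-8014 at 96 h, and at 1192, 1229 and 1197 CPM and 1556, 1566 and 1423 CPM at 240 h. It fell 1.09-fold at 96 h (adjusted p = 0.0233) and rose 1.26-fold at 240 h (log2 fold change 0.33, SE 0.0365, adjusted p = 2.58e-07), with no overlap at either time. The fall was lost without the WM-2474 library of culture 7 or the WM-8014 library of culture 5 (adjusted p = 0.0825 to 0.117), and exons of the opposite-strand gene Ap3m1 overlap 25.5% of its exon bases.

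Pdlim5 was at 267, 269 and 274 CPM with WM-2474 and 251, 251 and 247 CPM with WM-8014 at 96 h. At 240 h it was at 367, 374 and 387 CPM with WM-2474 and 505, 527 and 480 CPM with WM-8014. With no overlap at either time, it fell 1.08-fold (adjusted p = 0.0247) and then rose 1.34-fold (log2 fold change 0.42, SE 0.0354, adjusted p = 4.14e-09). The fall was lost without any 1 of 5 libraries, the WM-2474 libraries of cultures 6 and 7 and the WM-8014 libraries of cultures 5, 6 and 7 (adjusted p = 0.0509 to 0.11).

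Fhl2, a LIM-domain co-factor, did not pass at 96 h and rose 1.2-fold at 240 h (log2 fold change 0.26, adjusted p = 8.59e-06). Zyx, which encodes zyxin, rose at 240 h by 0.10 on the log2 scale in 2 of 3 cultures (adjusted p = 0.0481), with overlap between the groups. It was lost without the WM-2474 library of culture 5 or the WM-8014 library of culture 5 or 6 (log2 fold changes 0.06 to 0.09, adjusted p = 0.133 to 0.273). Pdlim7 fell at 240 h by 0.11 (adjusted p = 0.0454), also with overlap. That call was lost without the WM-2474 library of culture 6 or 7 or the WM-8014 library of culture 5 or 7 (log2 fold changes -0.12 to -0.06, adjusted p = 0.0622 to 0.304). Csrp1, a LIM-only protein, and Actn4, an alpha-actinin, fell at 96 h by 0.20 and 0.15 (adjusted p = 0.0023 and 0.00985) and were not called at 240 h, and Actn4 was lost without the WM-8014 library of culture 7 (adjusted p = 0.0557). Flna, Actn1 and Synpo2 were not called at either time, with log2 differences of -0.09, -0.13 and -0.23 at 96 h and -0.00, 0.13 and -0.14 at 240 h.

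Because same-numbered cultures deviated together at 96 h, a model with the culture number as a block was also fitted. It called Tagln2, Actn1 and Pdlim7 lower at 96 h (adjusted p = 0.0382, 0.0154 and 0.0194) beside the 17 genes named above, which makes 20.

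Des, on chromosome 1 from 75360292 to 75368579 (mm10, plus strand), encodes desmin, the intermediate filament protein of muscle that links myofibrils, and it moved most. At 96 h it was at 22.9, 19.2 and 23.1 CPM with WM-2474 and 30.6, 32 and 33.5 CPM with WM-8014. At 240 h it was at 34.2, 28.1 and 28.3 CPM with WM-2474 and 106, 90.3 and 81.7 CPM with WM-8014. No library of one compound reached the other's range at the same time. Des rose 1.46-fold at 96 h (log2 fold change 0.54, SE 0.117, adjusted p = 0.00647) and 3.05-fold at 240 h (1.61, SE 0.101, adjusted p = 1.01e-07). In RPKM at 240 h it was at 14 with WM-2474, the rank 5262 among the genes tested, and at 43.1 with WM-8014, the rank 1859, beside Myh11 at 42.8 and Smtn at 40.1 with WM-8014.

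The transcription factor genes moved apart. Srf, on chromosome 17 from 46546838 to 46558267 (mm10, minus strand), was at 105, 96.9 and 100 CPM with WM-2474 and 81.9, 83.3 and 72.4 CPM with WM-8014 at 96 h. At 240 h it was at 133, 153 and 145 CPM and 125, 123 and 117 CPM. The groups did not overlap at either time, and Srf fell 1.27-fold (log2 fold change -0.34, SE 0.0568, adjusted p = 0.000283) and 1.18-fold (-0.24, SE 0.0534, adjusted p = 0.00115). Of the 17 genes that fell at 96 h it had the lowest log2 fold change.

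Myocd encodes myocardin, the smooth muscle and heart co-activator of SRF, and was rare, at 0.67 RPKM with WM-2474 at 96 h. It was at 3.25, 3.76 and 3.3 CPM with WM-2474 and 4.55, 4.91 and 4.33 CPM with WM-8014 at 96 h, and at 7.5, 6.54 and 7.03 CPM and 12.7, 10.7 and 9.52 CPM at 240 h. WM-8014 libraries lay above all WM-2474 libraries of their time, and Myocd rose 1.35-fold (log2 fold change 0.43, SE 0.146, adjusted p = 0.0359) and 1.54-fold (0.62, SE 0.111, adjusted p = 0.000108). The call at 96 h was lost without any 1 of 5 libraries, the WM-2474 libraries of cultures 5 and 7 and the WM-8014 libraries of cultures 5, 6 and 7 (log2 fold changes 0.38 to 0.48, adjusted p = 0.0507 to 0.185), and with DESeq2 (0.096).

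Set side by side over both times, 2 genes rose at both (Des and Myocd), against 8.16% of all genes tested, and 4 fell at both (Tpm3, Cnn3, Smtn and Srf), against 8.91%. Falls at 96 h with rises at 240 h were called for 3 (Myl9, Vcl and Pdlim5), against 0.311% of all genes. As given above, the falls of Vcl and Pdlim5 at 96 h were lost without some single libraries. A further 10 fell at 96 h and were not called at 240 h, among them Acta2, Tagln and Myh9, against 2.62% of all genes. Another 7 were called at 240 h alone and rose (12.7% of all genes), and Tagln2 and Pdlim7 were called at 240 h alone and fell (12.4%). Across the 34 genes the log2 fold changes at the 2 times had a Pearson correlation of 0.79, against 0.67 over all 14136 genes. The times rest on different libraries, but genes are not independent replicates. Des had the highest value of the 34 at both times, 0.54 and 1.61, and weighs on a correlation over so few genes. The sign changed from negative at 96 h to positive at 240 h for 14 of the 34 genes, and for 1849 of all 14136.

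With the 2 libraries that stood apart left out, culture 5 alone stood for WM-2474 at 96 h, and its spread was taken to be that of the other groups. Then 6 of the 17 genes that fell at 96 h were still called, Acta2, Tpm1, Tpm3, Cnn2, Smtn and Srf, and 0 were called higher, while calls over all genes went from 3218 to 869. Myl9, Vcl and Pdlim5 were then at log2 fold changes of -0.13, -0.10 and -0.10 and Des at 0.48, all without a call.

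The difference between the 2 compound effects was tested directly as an interaction of compound and time, and was called higher at 240 h for 14 of 34 contractile genes and lower for 1, against 5.15% and 5.53% of all genes tested (10.7% in all). The median difference of the 34 genes was 0.19 on the log2 scale. The largest were Des at 1.07 (SE 0.154, adjusted p = 0.00096), Pdlim5 at 0.54 (SE 0.0507), Vcl at 0.45 (adjusted p = 8.12e-06) and Tpm2 at 0.43 (adjusted p = 5.15e-05). Myl9 and Tpm1 differed by 0.37 and 0.34. Acta2 differed by 0.24 (adjusted p = 0.0115), Tagln by 0.22 (adjusted p = 0.023) and Tagln2 by -0.32 (adjusted p = 0.0359). The difference for Acta1 was 0.82 but did not pass (95% interval 0.23 to 1.40, adjusted p = 0.0863). It passed with DESeq2 (adjusted p = 0.0128), in the blocked model (0.0292) and without WM-8014 240 h culture 7 (0.032). DESeq2 called 18 of 34 genes higher in this test, among them Mylk (0.024), Cnn1 (0.00936) and Cald1 (0.0495). The differences for Srf and Myocd were 0.10 (-0.06 to 0.26) and 0.19 (-0.19 to 0.57).

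Smaller differences were called for Actn1 at 0.26, Myh10 at 0.25, Csrp1 at 0.23, Actn4 at 0.22, and Cnn2 and Fhl2 at 0.19 each. Several calls rested on single libraries, named here by compound, time and culture. Myh10 was lost without WM-2474 96 h culture 7 (adjusted p = 0.0502), and 9 of 34 genes were called higher without that library. Csrp1 was lost without WM-2474 96 h culture 7, WM-8014 96 h culture 7, WM-2474 240 h culture 5 or WM-8014 240 h culture 5 or 6 (adjusted p = 0.0501 to 0.0576). Tagln, at 0.22, was lost without WM-2474 96 h culture 5 or 7, WM-8014 96 h culture 7, WM-2474 240 h culture 5 or WM-8014 240 h culture 5 or 6 (0.0548 to 0.0716). Actn1 was lost without WM-2474 96 h culture 5, 6 or 7, WM-8014 96 h culture 5 or 7 or WM-8014 240 h culture 5 or 6 (0.0524 to 0.0859). Fhl2 was lost without WM-2474 96 h culture 5 or 7, WM-8014 96 h culture 6 or 7, WM-2474 240 h culture 5 or 6 or WM-8014 240 h culture 5 (0.0657 to 0.0957). Tagln2, at -0.32, was called without WM-2474 240 h culture 5 or WM-8014 240 h culture 6 and lost without each of the other 10 libraries (0.0573 to 0.0926).

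**Figure D4:**
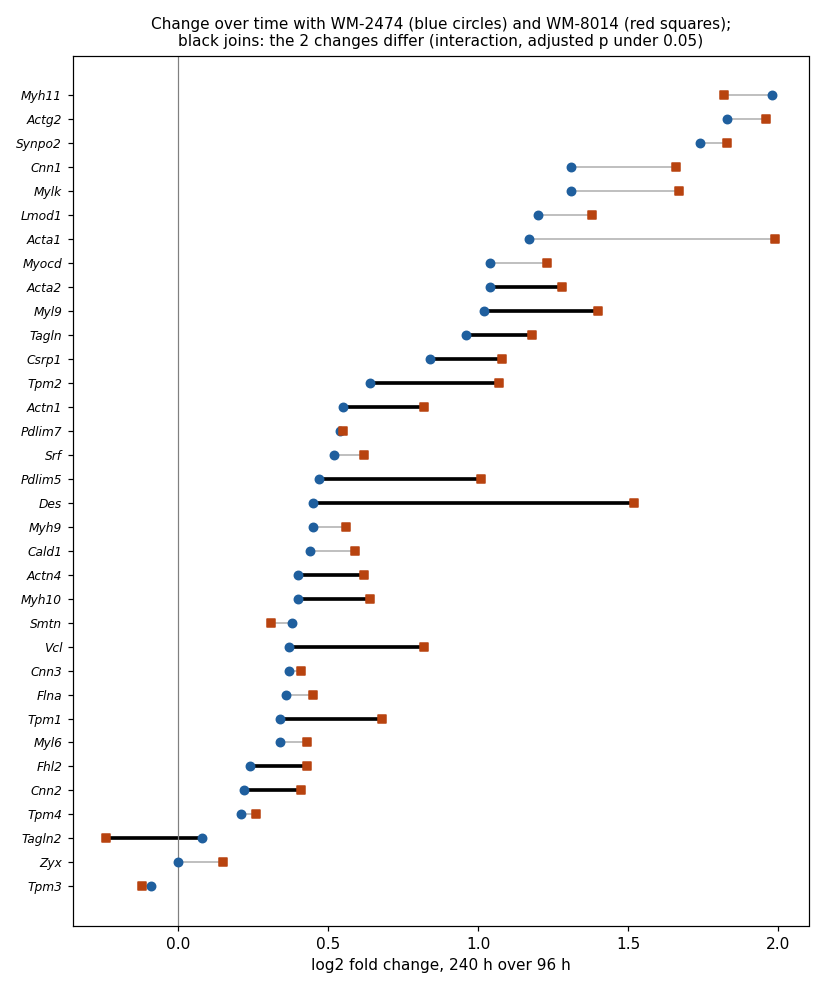
Log2 fold change from 96 to 240 h with WM-2474 (blue circles) and with WM-8014 (red squares) for the 34 contractile genes tested, ordered by the change with WM-2474, and joined in black where the 2 changes differed (interaction, adjusted p under 0.05). The red square lies right of the blue circle for 30 of 34 genes, and Tagln2 is the black-joined gene where it lies left.

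Between 96 and 240 h most contractile genes rose with either compound. With WM-2474, 31 of 34 rose and 1 fell, against 19.8% and 19.1% of all genes tested (38.9% in all), with a median log2 fold change of 0.46. With WM-8014, 32 of 34 rose and 2 fell, against 24.8% and 25% of all genes (49.7% in all), and the median was 0.75. The groups did not overlap for 31 higher and 1 lower gene with WM-2474, against 24.5% and 25% of all genes, and for 32 and 2 with WM-8014, against 27.7% and 28.8%. The comparisons use different libraries. Myh11, Actg2 and Synpo2, which encodes an actin-bundling protein, rose most with WM-2474, by 1.98, 1.83 and 1.74 on the log2 scale, and Cnn1, Mylk and Lmod1 rose 2.48-fold, 2.48-fold and 2.3-fold. With WM-8014, Myh11, Actg2 and Synpo2 rose by 1.82, 1.96 and 1.83 on the log2 scale, and Cnn1, Mylk and Lmod1 rose 3.17-fold, 3.18-fold and 2.6-fold. Acta2 rose 2.05-fold with WM-2474 and 2.43-fold with WM-8014, and Tagln 1.94-fold and 2.26-fold.

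Of the exceptions, Tpm3 fell by 0.09 with WM-2474 (adjusted p = 0.0224) and by 0.12 with WM-8014 (adjusted p = 0.00339). The former was lost without WM-2474 96 h culture 5 or 6 or WM-2474 240 h culture 5 or 6 (log2 fold changes -0.09 to -0.07, adjusted p = 0.0523 to 0.131). Tagln2 did not pass with WM-2474 (0.08, adjusted p = 0.376) and fell by 0.24 with WM-8014 (adjusted p = 0.00608). Zyx did not pass with WM-2474 (-0.00, 95% interval -0.09 to 0.08) and rose by 0.15 with WM-8014. The Myh11 share of the 3 myosin heavy chain genes in RPKM went from 2.48 ± 0.29% to 7.03 ± 0.33% with WM-2474, and the Cnn1 share of the calponins from 9.67 ± 0.52% to 18.1 ± 0.29%.

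**Figure D5:**
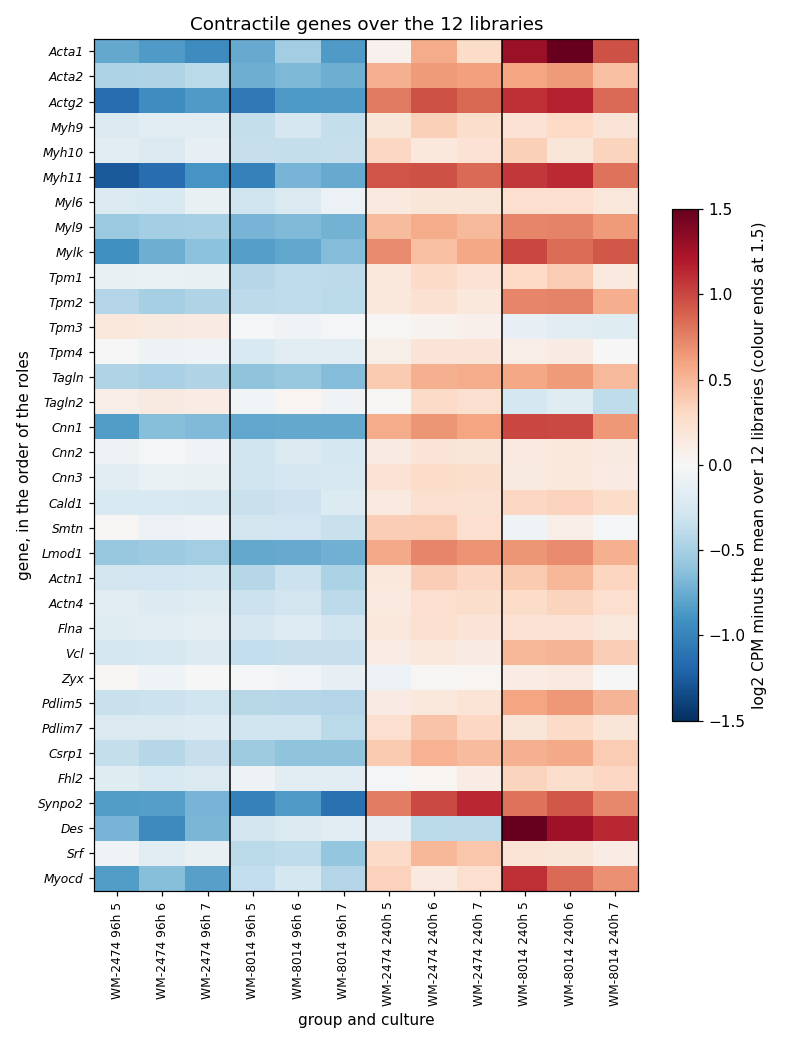
Log2 CPM of the 34 contractile genes in the 12 libraries (columns), minus each gene's mean, with red above and blue below it. The 240 h libraries are mostly red, with Des at 1.131 to 1.504 in the WM-8014 libraries, while Tpm3 (-0.180 to -0.121) and Tagln2 (-0.376 to -0.178) are blue there.

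Proliferation genes fell with WM-8014 at both times beside these changes. All 9 of the list (Mki67, Top2a, Plk1 and others) were called lower in every comparison, with median log2 fold changes of -0.40 at 96 h and -1.27 at 240 h. Their sum was 886 to 932 CPM with WM-2474 and 652 to 725 CPM with WM-8014 at 96 h, and 587 to 628 and 225 to 270 CPM at 240 h. Their part in the contractile changes was not tested. Markers of smooth muscle or of pericytes (9 genes, among them Cspg4, Rgs5, Mcam and the members Myh11, Lmod1, Myocd and Des) summed to 560 to 608 and 543 to 581 CPM at 96 h and to 1302 to 1410 and 1283 to 1332 CPM at 240 h, WM-2474 first. These sums cover opposite calls, 2 higher and 2 lower at each time. Des and Myocd rose at both times, and Mcam fell at both, by 0.34 (adjusted p = 0.00338) and 0.47 (adjusted p = 3.39e-05). Lmod1 fell at 96 h, and Cspg4 fell at 240 h by 0.20 (adjusted p = 0.00135). Mesothelium markers (Msln, Wt1, Upk3b and Lrrn4) summed to 21.1 to 36 and 20.3 to 50.5 CPM at 96 h and to 3.42 to 7.56 and 4.67 to 16.1 CPM at 240 h, WM-2474 first, and none was called between compounds. Of 6 endothelium markers 4 were tested, and all 4 were called lower at 240 h than at 96 h with either compound. The 6 summed to 6.73 to 7.97 and 4.02 to 5.88 CPM at 96 h, WM-2474 first. At 240 h the sums were 2.49 to 3.32 and 2.42 to 2.71 CPM. With WM-8014 Kdr fell at both times, by 0.96 (adjusted p = 0.00706) and 0.79 (adjusted p = 0.0337), and the other 3 were not called. Of 6 macrophage markers 3 were tested, and Csf1r and Lyz2 rose with WM-8014 at 240 h, where the sums were 4.9 to 6.22 and 9.46 to 11.2 CPM. At 96 h only Lyz2 was called, higher with WM-8014 by 0.61 (adjusted p = 0.0482). The sums there were 7.31 to 7.8 CPM with WM-2474 and 8.8 to 12.4 CPM with WM-8014. The part of these cell types in the contractile changes was not tested.

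Neighbours of the contractile genes in the same pathway were described from lists, whose counts stand beside 10.9% higher and 11.8% lower among all genes at 96 h and 21.2% and 21.4% at 240 h. Of 10 genes tested that regulate SRF, 1 rose at 96 h and 4 rose at 240 h, and 0 fell. Mrtfa, the gene of MRTF-A, rose by 0.34 at 240 h (adjusted p = 4.02e-06), Elk1, which competes for SRF, by 0.32 (adjusted p = 1.26e-05), Fhl1 by 0.33 and Klf4, a repressor of smooth muscle genes, by 0.35. The one called at 96 h was Klf4, at 0.23 (adjusted p = 0.0403), lost without the WM-2474 library of culture 6 or 7 or the WM-8014 library of culture 5 or 7 (adjusted p = 0.0904 to 0.135), and with culture 5 as the sole WM-2474 library (0.10, adjusted p = 0.529). SRF target genes with no contractile role fell in 5 of 10 cases and rose in 0 at 96 h, with a median of -0.34. Among them Egr1, an immediate early transcription factor, fell by 0.55 (adjusted p = 0.00023) and the matricellular gene Ccn1 by 0.26 (adjusted p = 0.00774). At 240 h 2 rose and 1 fell, with a median of 0.20, and Ccn1 rose by 0.24 (adjusted p = 0.00606) while Egr2 fell by 0.63 (adjusted p = 0.00371).

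Of 31 other stress fibre and Z-line genes, 4 rose and 10 fell at 96 h, and 11 rose and 8 fell at 240 h, where the rises at 96 h and the falls at 240 h were near the shares of all genes. Pdlim2, a relative of Pdlim5, rose at both times, by 0.45 (adjusted p = 2.79e-06) and 0.89 (adjusted p = 1.46e-11). Actg1, the non-muscle gamma actin gene, fell at 96 h by 0.19 (adjusted p = 0.000374), and Ldb3 and Tes, which encode a Z-line protein and a zyxin partner, rose at 240 h by 0.79 and 0.38.

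Smooth muscle signalling genes split, with 4 higher and 4 lower of 24 at 96 h and 9 higher and 8 lower at 240 h. Ednra, the endothelin A receptor, fell by 0.53 at 96 h (adjusted p = 0.00157) and by 1.71 at 240 h (adjusted p = 3.30e-11). The call of Ednra at 96 h was lost with culture 5 as the sole WM-2474 library (-0.40, adjusted p = 0.2). Gucy1b1, a subunit of the nitric oxide receptor guanylate cyclase, fell by 1.16 at 240 h. Dmpk, a kinase of muscle, rose by 0.54 and 0.97, and Hspb6, a small heat-shock protein of smooth muscle, by 0.44 and 0.88, at 96 and 240 h. Of 13 myofibroblast matrix genes, 4 rose and 1 fell at 96 h and 6 rose and 2 fell at 240 h. Of the rises at 96 h, those of Col1a2, Col5a1 and Fn1 were lost without the WM-2474 library of culture 7 (adjusted p = 0.0505, 0.0588 and 0.147). Col5a1 was also lost without the WM-2474 library of culture 5 or the WM-8014 library of culture 6, and Fn1 without the WM-2474 library of culture 5 or the WM-8014 library of culture 5 or 6. Lox, which crosslinks collagen, rose by 0.19 and 0.41, and Thbs1 by 0.48 at 240 h, while Cthrc1 fell at both times by 0.31 and 0.46.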

How the data were processed

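RNA was isolated with RNeasy and sequenced from stranded poly(A) libraries, per the labels' protocols. The deposited table holds raw read counts per gene, which the authors made with featureCounts on mm10, per the submitters' processing notes, and a gene length. No aligner, annotation or strand setting was named, and the deposited lengths were used for RPKM. Nothing in the labels ties a culture number to an embryo, so p-values measure the spread between cultures.

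Counts were tested in R 4.3.3 with edgeR 4.0.16 (TMM scaling, filterByExpr, robust quasi-likelihood F test, 4 group means over 12 libraries, two-sided, Benjamini-Hochberg over 14136 genes, threshold 0.05). Standard errors were derived from the fold change and F, intervals are 95%, and CPM uses the TMM-adjusted total, where 3 reads are 0.0615 to 0.303 CPM, a limit of counting alone. A prior count of 2 served the log2 CPM of single libraries. The edgeR test of the compound contrasts was also run on simulated counts with known changes at 96 h. The interaction, the block and DESeq2 were not covered by it, and its recovery is not given here. Symbols and positions are from RefSeq GRCm38.p6 (25275 of 27179 genes matched), the coordinate system of mm10. Replicate pairs differed by a chi-square per degree of freedom of 2.1 to 7.13, so none was a duplicate. Exon overlaps and shared words were computed on GENCODE M21.

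All 35 genes were accounted for. Values per library were given for Acta2, Tagln, Cnn1, Myh9, Tpm1, Srf and Myocd, and for the 4 highest and 4 lowest called genes at each time, with Myl9, Vcl and Pdlim5 added after their values were seen. Members and lists were chosen with earlier results of these data known. The results of 1 further gene list are not reported here. Deviations of same-numbered cultures from their group means correlated at 0.14, 0.15 and 0.16 across genes at 96 h, where the numbers were taken to pair libraries, and at 0.064, 0.24 and 0.048 at 240 h. Alternatives were RLE size factors, no filter, DESeq2 1.42.0, the culture number as a block, only the groups compared, and leaving out libraries.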

Additional observations from a re-analysis of the deposited data

Results flagged for a closer look

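The effect of WM-8014 at 240 h differed from that at 96 h, by the test of the interaction in edgeR, for 15 contractile genes. The difference in log2 fold change (240 h minus 96 h) was 1.07 for Des, 0.54 for Pdlim5, 0.45 for Vcl, 0.43 for Tpm2, 0.37 for Myl9 and 0.34 for Tpm1. It was 0.26 for Actn1, 0.25 for Myh10, 0.24 for Acta2, 0.23 for Csrp1, 0.22 for Tagln and Actn4, and 0.19 for Cnn2 and Fhl2. For Tagln2 it was -0.32. With culture 5 alone as the WM-2474 96 h library, 6 of the 14 positive differences were still called, for Myl9, Tpm1, Tpm2, Vcl, Pdlim5 and Des, and Tagln2 was not. Proliferation genes also differed, with 9 of 9 lower and a median of -0.87, and their part was not tested.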

How the results depend on the processing

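Without any 1 library, 11 of 17 falls and 1 of 2 rises at 96 h, 9 of 12 rises and 5 of 6 falls at 240 h, and 9 of 14 positive interactions were still called. Counts of contractile genes without 1 library ran from 12 to 18 lower and 1 to 2 higher at 96 h, 5 to 8 lower and 9 to 15 higher at 240 h, 9 to 19 positive and 0 to 1 negative for the interaction, and 0 to 1 lower over time with WM-2474. Calls over all genes at 96 h ran from 2053, without the WM-2474 library of culture 7, to 2762. With culture 5 alone as the WM-2474 96 h library, the contractile genes gave 0 higher and 6 lower calls at 96 h, 6 positive and 0 negative for the interaction, and 28 higher and 0 lower over time with WM-2474, and all genes gave 869, 586 and 2710 calls. DESeq2 gave 1 higher at 96 h and 18 positive interactions, the fit without a filter 0 negative interactions, and a fit of only the groups compared 2 lower over time with WM-2474. At 240 h Cnn1 was lost without a filter (adjusted p = 0.0513) and with only the groups compared (0.0639). Zyx and Pdlim7 were lost with DESeq2 (0.065 and 0.0802) and with only the groups compared (0.0853 and 0.0722). That last fit gave 10 higher and 5 lower at 240 h. Signs reversed for genes that had no call, Cnn1 at 96 h with culture 5 alone (0.06), Myh9 at 240 h without the WM-2474 library of culture 6 (-0.08 to 0.02 without any 1 library) and Acta2 at 240 h without the WM-8014 library of culture 7 (-0.07 to 0.02). The cause was not tested. With the replicate block, Actn1 was higher at 240 h (0.13, adjusted p = 0.0123) and Acta1, Mylk and Cald1 passed the interaction (0.83, 0.36 and 0.16). At 240 h same-numbered cultures correlated unevenly, at 0.064, 0.24 and 0.048 for cultures 5, 6 and 7. The block changed no other call of a contractile gene beside those given at 96 h. RLE size factors moved the median of all genes by at most 0.01 on the log2 scale. Depth limits Actc1 and Myocd most.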
